A study of Mus musculus with 16 samples.

Results

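The genes described here are 2 neurotrophins, 4 of their receptors and 2 secreted or surface proteins that act beside them: Bdnf, Ntf3, Ntrk2, Ntrk3, Ngfr, Sort1, Nrn1 and Vgf. They were taken by gene symbol, and all 8 were found among the 17986 genes that the exploration and home cage parts of the expression table share. Neurotrophins are small secreted growth factors, made as longer precursors, that bind Trk receptor tyrosine kinases with high affinity and the p75 neurotrophin receptor (the product of Ngfr) as a second receptor. BDNF acts through TrkB (Ntrk2) and neurotrophin-3 through TrkC (Ntrk3), and in the hippocampus BDNF and TrkB are known for their part in synaptic plasticity. Sortilin (Sort1) sorts pro-BDNF in neurons and serves as a co-receptor of p75 for precursor neurotrophins, and Nrn1 and Vgf are classical activity- and neurotrophin-regulated genes.

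The study measured RNA from hippocampal area CA1, cut by laser from 8 µm frozen brain sections of male C57Bl6 mice aged 3 to 6 months that were not perfused. Home cage mice had no intervention. Exploration mice spent 20 min a day for 1 week in an open field with sides of 50 cm, and tissue was taken 20 min after their final session. Within each environment the genotype label is either wild type or N3 -/-, which the series title ties to loss of NEIL3, a DNA glycosylase of base excision repair, and nothing in the labels names a promoter, Cre line or the deleted part of the gene. This gave 4 groups: 2 WT-labelled and 2 KO-labelled home cage libraries, and 3 WT-labelled and 3 KO-labelled exploration libraries. The labels do not say whether the libraries of a group are separate animals, so p-values measure the spread between these libraries, which may be technical. Replicate numbers only name libraries.

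Neil3 itself ran against the labels. It was 0 in both WT-labelled home cage libraries and between 0 and 0.05 FPKM (fragments per kilobase of transcript, scaled to library size) in the 3 WT-labelled exploration libraries, and 13.77 and 15.22 FPKM in the KO-labelled home cage libraries and 15.13, 11.85 and 8.35 FPKM in the KO-labelled exploration libraries. Every direction between genotypes below is therefore that of libraries labelled KO relative to libraries labelled WT. Home cage and exploration values stand in separate parts of the table, so any effect of exploration given here and any offset between those parts cannot be told apart. Summed over the shared genes, FPKM was 405718 to 431422 in home cage and 436171 to 466701 in exploration libraries, without overlap. The median change over all tested genes, averaged over both genotypes, was -0.03. What this difference in sums adds to the change of any gene was not tested. The spacing of low values put each library at roughly 18000000 to 19600000 fragments. CA1 markers such as Wfs1 and Fibcd1 were present in every library, with all 9 listed markers measured and a summed level of 807.99 to 1007.46 FPKM. They were not even across libraries: in the home cage Wfs1 was 127.3 and 64.88 FPKM in KO-labelled against 218.93 and 192.41 FPKM in WT-labelled libraries (change -1.17, limma adjusted p = 0.0358), and Dcn was 27.24 FPKM in KO-labelled home cage library 2 and 0.2 to 2.82 FPKM in the other 9. In the home cage genotype comparison Dcn and Mpped1 were called higher, Wfs1 lower and the other 6 CA1 markers were not called. The median change of the 9 was 0.21. Their sum was 982.89 to 1007.46 FPKM in KO-labelled and 874.44 to 943.4 FPKM in WT-labelled home cage libraries. Several calls in KO-labelled libraries depend on KO-labelled home cage library 2. The choroid plexus marker Ttr was 218.7 FPKM in WT-labelled home cage library 1 and 118.06 and 93.56 FPKM in WT-labelled exploration libraries 1 and 2. In the other libraries it was 0.04 to 4.24 FPKM. The part of such tissue in the values of any gene here was not tested. In such bulk tissue, fewer cells of a type and less RNA per cell cannot be told apart.

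The 8 genes differed widely in level, with Nrn1 at the top and Ngfr near 0. Nrn1 had the highest mean at 183.8 ± 25.2 FPKM (SD, n = 10), followed by Sort1 at 129.9 ± 7.89 FPKM, Vgf at 107.1 ± 15.4 FPKM, Ntrk2 at 40.76 ± 4.69 FPKM, Ntrk3 at 25.8 ± 4.79 FPKM, Bdnf at 20 ± 2.12 FPKM, Ntf3 at 2.455 ± 2.1 FPKM and Ngfr at 0.059 ± 0.0357 FPKM, with the same n. The ranges of Nrn1 and Sort1 did not meet, nor did those of Vgf and Ntrk2, of Bdnf and Ntf3, or of Ntf3 and Ngfr. The neighbours Sort1 and Vgf, Ntrk2 and Ntrk3, and Ntrk3 and Bdnf overlapped in range. Both Trk receptor genes had a higher mean FPKM, a per-length level, than either ligand gene. The coefficient of variation ran from 6.07% for Sort1 to 85.6% for Ntf3, with Bdnf at 10.6%.

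**Figure D1:**
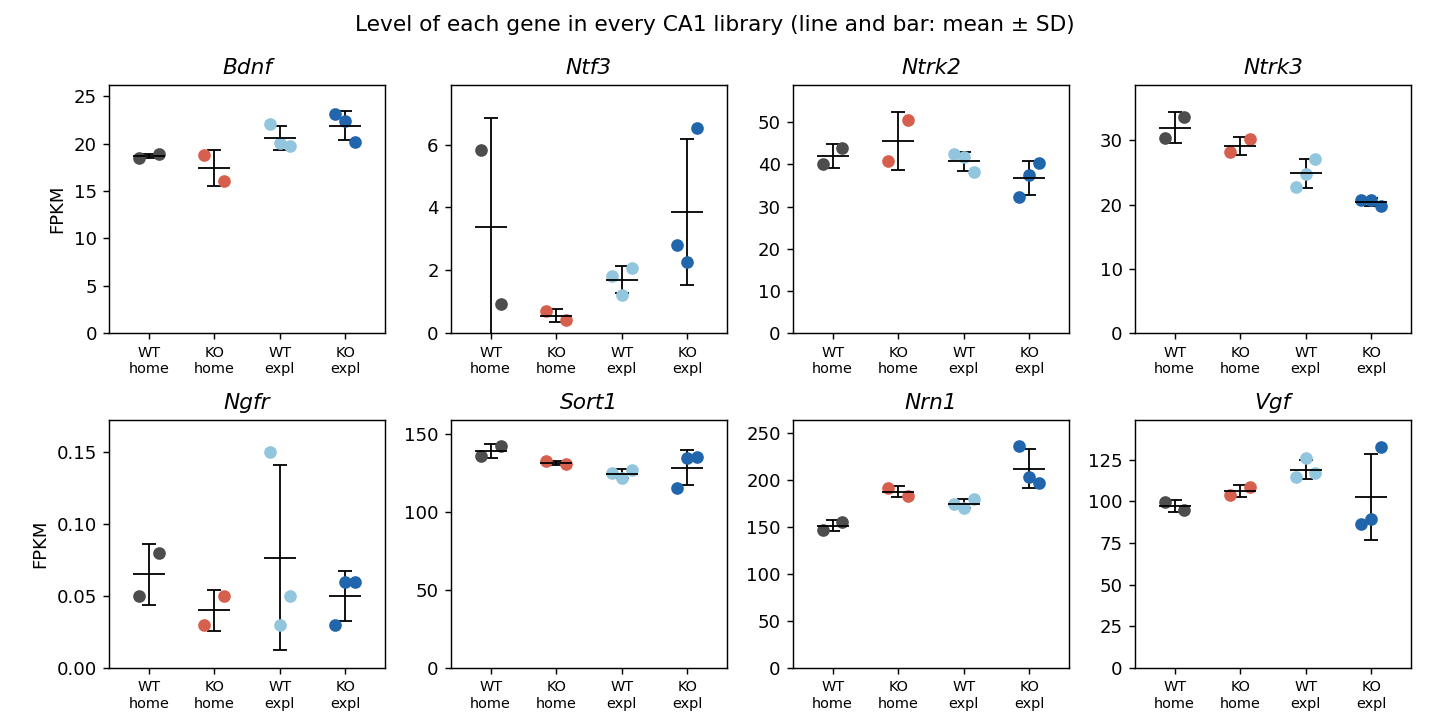
FPKM of the 8 genes in each of the 10 libraries; each panel has its own axis starting at 0, points are libraries, and the line and bar are the group mean ± SD (the lower bar of Ntf3 in WT-labelled home cage libraries runs past 0 and is cut at the axis). Ntrk3 is lower in all 6 exploration libraries than in all 4 home cage libraries, and Ntf3 is high in 1 library of each of 2 groups.

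Bdnf is transcribed from several alternative promoters, and the one before exon IV is the best known for its response to neuronal activity. The RefSeq promoter table (GRCm38.p6) held windows for 4 of the 8 genes, 7 of them for Bdnf, each 300 bases long across a start site. Those windows were searched for the short core of the cAMP response element, TGACG, in either orientation, since CREB-type factors acting there are part of the textbook account of Bdnf induction. One Bdnf window held it, with its first base at position -35 from the start site, and this is the window of the exon IV start at chr2:109692186-109692485, plus strand. It is printed with the match in capitals.

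Bdnf exon IV promoter: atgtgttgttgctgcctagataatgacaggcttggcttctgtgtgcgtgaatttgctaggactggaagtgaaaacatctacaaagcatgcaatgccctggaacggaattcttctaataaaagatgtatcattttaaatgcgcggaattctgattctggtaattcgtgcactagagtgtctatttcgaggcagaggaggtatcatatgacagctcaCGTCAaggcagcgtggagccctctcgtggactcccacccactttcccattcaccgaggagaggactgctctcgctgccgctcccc

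The other 6 Bdnf windows, both Ntf3 windows and the single windows of Ntrk2 and Ngfr did not hold TGACG, which 20.8% of 32851 windows in the table do. The full element TGACGTCA was in none of these windows and in 1.79% of all windows. The table gives 1 value per gene, so the use of single Bdnf promoters, or of full-length against truncated TrkB, could not be read from it.

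Bdnf, on chromosome 2 (GRCm38.p6, 109674700 to 109727043, gene ID 12064), was higher after exploration. It measured 18.53 and 18.89 FPKM in the WT-labelled home cage libraries, 18.81 and 16.07 FPKM in the KO-labelled home cage libraries, 22.09, 20.06 and 19.77 FPKM in the WT-labelled exploration libraries and 23.15, 22.38 and 20.21 FPKM in the KO-labelled exploration libraries. All 6 exploration libraries lay above all 4 home cage libraries, at 21.28 ± 1.43 FPKM (SD, n = 6) against 18.08 ± 1.35 FPKM (n = 4). Of all 11892 tested genes 16.9% were apart between the environments in this way, and 2 of the tested genes here, Bdnf and Ntrk3, were among them.

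In KO-labelled libraries Bdnf rose by 0.32 on the log2(FPKM + 1) scale (SE 0.092, limma adjusted p = 0.026), in a comparison that called 28.6% of all tested genes. Averaged over both genotypes, a comparison added after values were seen that called 31.9% of genes, the rise was 0.22 (SE 0.065, adjusted p = 0.0226). In WT-labelled libraries the change was 0.13 with a 95% interval of -0.07 to 0.33 (adjusted p = 0.421), and the difference in response between genotypes, 0.18 with an interval of -0.10 to 0.47, was not called (adjusted p = 0.534). The KO-labelled rise rested on home cage library 2, the lowest of all 10: without it the change was 0.21 (adjusted p = 0.265). It was also lost without KO-labelled exploration library 1 or 2 (adjusted p = 0.0593 and 0.0646) and in a fit of the KO-labelled groups alone (adjusted p = 0.0842), and the averaged rise was lost without WT-labelled exploration library 1, either WT-labelled home cage library, or home cage library 2 of the KO label (adjusted p up to 0.109). Between genotypes Bdnf differed by -0.10 in the home cage (adjusted p = 0.652) and 0.08 after exploration (adjusted p = 0.642).

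Ntf3, on chromosome 6 (126101412 to 126166772, gene ID 18205), was low and uneven. It measured 5.82 and 0.93 FPKM in the WT-labelled home cage libraries, 0.7 and 0.41 FPKM in the KO-labelled home cage libraries, 1.83, 1.22 and 2.06 FPKM in the WT-labelled exploration libraries and 2.8, 2.25 and 6.53 FPKM in the KO-labelled exploration libraries. WT-labelled home cage library 1 and KO-labelled exploration library 3 stood apart from the other libraries. Its values rest on an estimated 10 to 160 fragments a library.

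In KO-labelled libraries Ntf3 rose by 1.55 after exploration (log2(FPKM + 1), SE 0.445, limma adjusted p = 0.0246), which was the largest change among the tested genes of this family in that comparison. Without KO-labelled exploration library 3 the change was 1.18 (adjusted p = 0.0619), and without home cage library 1 or 2 of that genotype the adjusted p was 0.0537 or 0.184. It was 0.087 with no filter on low values and 0.0596 with robust variance moderation. In WT-labelled libraries it was -0.44 (SE 0.445, adjusted p = 0.6), and 0.47 without WT-labelled home cage library 1. The difference in response was 1.99 (SE 0.629, adjusted p = 0.139, unadjusted p = 0.00848). It was 1.08 without that library (adjusted p = 0.416) and 2.90, then called (adjusted p = 0.0366), without WT-labelled home cage library 2. With both high libraries left out, an alternative chosen after seeing the data, the KO-labelled rise was 1.18 with adjusted p = 0.0042 and the average rise 0.83 with adjusted p = 0.00417. Between genotypes Ntf3 was -1.23 in the home cage (SE 0.487, adjusted p = 0.203) and 0.76 after exploration (SE 0.398, adjusted p = 0.347). The home cage value was -0.32 without WT-labelled home cage library 1 and -2.14, then called (adjusted p = 0.0288), without WT-labelled home cage library 2.

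Some of the genes listed as markers of CA2, the field next to CA1, and CA3 moved with Ntf3 and others did not. Amigo2 was 16.11 and 1.78 FPKM in the WT-labelled home cage libraries, 0.9 and 1.58 in the KO-labelled ones, 6.26, 4.92 and 4.22 in WT-labelled exploration and 7.62, 6.06 and 16.93 in KO-labelled exploration, high in the same 2 libraries as Ntf3. Over the 10 libraries, r with Ntf3 on log2(FPKM + 1) was 0.952 for Amigo2, 0.909 for Cpne4 and 0.96 for Cacng5, and 0.893, 0.918 and 0.907 over the 8 libraries left without those 2. These are descriptions over libraries that share dissection and depth, and carry no p. Of the 10 CA2 and CA3 markers listed, all were measured, 6 had a mean of at least 1 FPKM, and r with Ntf3 over 10 libraries was also 0.917 for Map3k15, 0.741 for Rgs14, 0.491 for Necab2, 0.334 for Elavl2, 0.084 for Iyd, -0.008 for Coch and -0.475 for Plagl1. Over the 8 libraries these 7 were 0.735, 0.581, -0.011, 0.246, 0.303, -0.286 and -0.585, in the same order. Their summed level was 128.3 to 200.77 FPKM in WT-labelled home cage, 132.08 to 138.66 in KO-labelled home cage, 156.47 to 167.45 in WT-labelled exploration and 137.19 to 199.4 in KO-labelled exploration libraries. In KO-labelled libraries exploration called 3 of the 7 tested markers higher and 0 lower, beside 28.6% of all genes called (12% higher). The median change of the 7 was 0.18. Amigo2 rose by 2.22 (adjusted p = 0.0172), Cpne4 by 2.24 (adjusted p = 0.00975) and Cacng5 by 1.34 (adjusted p = 0.0272). These 3 genes also ran with Bdnf and opposite to Ntrk3. Over the 8 libraries r with Amigo2, Cpne4 and Cacng5 was 0.839, 0.85 and 0.822 for Bdnf and -0.853, -0.841 and -0.715 for Ntrk3. Over all 10 it was 0.439, 0.572 and 0.405 for Bdnf and -0.559, -0.621 and -0.458 for Ntrk3. The rest of the list ran from -0.614 to 0.568 for Bdnf and -0.519 to 0.416 for Ntrk3 over the 8. The part of these markers in the Ntf3, Bdnf and Ntrk3 results was not tested.

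**Figure D2:**
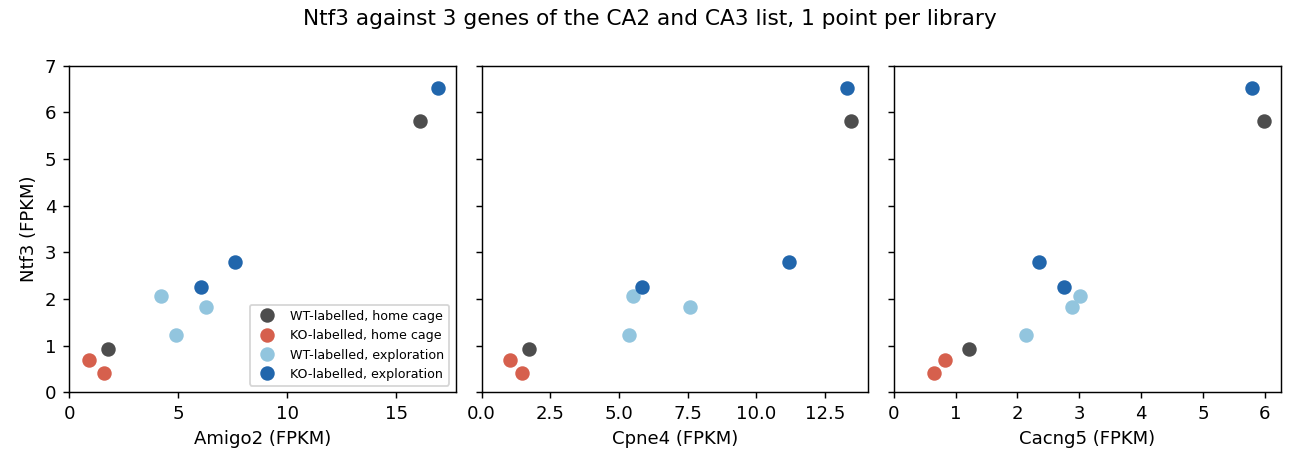
FPKM of Ntf3 (vertical) against that of Amigo2, Cpne4 and Cacng5 (horizontal), 1 point per library, coloured by group. The libraries with 5.82 and 6.53 FPKM of Ntf3 are also the 2 with the most of all 3 other genes, and the KO-labelled home cage libraries sit at the low end.

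Ntrk2, which encodes TrkB, lies on chromosome 13 (58806472 to 59133970, gene ID 18212) and is expressed in neurons and, in its truncated form, in astrocytes. It measured 40.05 and 43.92 FPKM in WT-labelled home cage, 40.77 and 50.48 in KO-labelled home cage, 42.42, 41.65 and 38.19 in WT-labelled exploration and 32.34, 37.37 and 40.42 in KO-labelled exploration libraries. The highest and the lowest library were both labelled KO. All 3 KO-labelled exploration libraries lay below both KO-labelled home cage libraries, with the nearest 2 at 40.42 and 40.77 FPKM. The share of all genes apart in that way was not counted. The change in KO-labelled libraries was -0.30 (SE 0.11, 95% interval -0.55 to -0.06, limma adjusted p = 0.0577). It missed the threshold in a comparison that called 28.6% of all genes. It was called in 4 of 19 alternatives: quantile normalization (-0.36, adjusted p = 0.0492), without KO-labelled home cage library 1 (-0.46, adjusted p = 0.0201), without KO-labelled exploration library 3 (-0.38, adjusted p = 0.0332), and without both libraries high in Ntf3 (adjusted p = 0.0418). Without KO-labelled home cage library 2 it was -0.15 (adjusted p = 0.485). In WT-labelled libraries it was -0.04 (adjusted p = 0.861), and the difference in response was -0.26 with an interval of -0.60 to 0.08 (adjusted p = 0.443). Between genotypes it differed by 0.11 in the home cage (adjusted p = 0.681) and -0.15 after exploration (adjusted p = 0.448). The summed level of 10 astrocyte markers was 161.71 to 179.77 FPKM in WT-labelled home cage, 249.39 to 296.1 in KO-labelled home cage, 196.48 to 252.86 in WT-labelled exploration and 231.44 to 278.22 in KO-labelled exploration libraries. KO-labelled home cage library 2 held the most of both Ntrk2 and these markers. The other libraries did not follow this pairing throughout. KO-labelled exploration library 1 held the least Ntrk2, 32.34 FPKM, at a marker sum of 231.44 FPKM. WT-labelled home cage library 1 had the lowest sum, 161.71 FPKM, at 40.05 FPKM of Ntrk2. The part of these markers in the Ntrk2 values was not tested.

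Ntrk3, which encodes TrkC, fell after exploration in both genotypes. The gene lies on chromosome 7 (78179986 to 78581034, gene ID 18213) and measured 30.28 and 33.67 FPKM in WT-labelled home cage, 28.18 and 30.14 in KO-labelled home cage, 22.72, 24.71 and 27.12 in WT-labelled exploration and 20.74, 20.76 and 19.72 in KO-labelled exploration libraries. Every exploration library was below every home cage library, and the 3 KO-labelled exploration libraries were the lowest of all. The change was -0.35 in WT-labelled (SE 0.087, limma adjusted p = 0.0359) and -0.49 in KO-labelled libraries (SE 0.087, adjusted p = 0.0031), and -0.42 averaged over both (SE 0.062, adjusted p = 0.000882). It was the only tested gene here called in WT-labelled libraries, where 6.31% of all genes were called. Over all genes 28.6% were called in KO-labelled libraries. The averaged comparison, added after values were seen, called 31.9%, with 19.2% lower.

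The averaged fall of Ntrk3 stayed past the threshold in 18 of 18 alternatives, with adjusted p of 0.000747 to 0.00767 and changes of -0.46 to -0.38. In KO-labelled libraries the change was -0.45 (adjusted p = 0.0502) without KO-labelled home cage library 2 and called in the other 18 of 19 alternatives. In WT-labelled libraries alone the call was kept in 10 of 19, with adjusted p up to 0.327 without WT-labelled home cage library 2, and it was also lost with no filter on low values, with size factors, with no variance trend, and without WT-labelled home cage library 1, WT-labelled exploration library 1 or 2, or KO-labelled exploration library 2. The difference in response between genotypes was -0.14 (interval -0.41 to 0.13, adjusted p = 0.623) and not called. Interneuron markers summed to 246.65 to 294.78 FPKM in the home cage and 312.88 to 400.11 FPKM after exploration without overlap. The averaged comparison called 3 of the 9 tested ones higher, Npy, Pvalb and Sst, and 0 lower. Over all genes it called 12.6% higher. Gad2 and Slc32a1 overlapped between the environments. Also called higher there were 6 of 10 oligodendrocyte, 4 of 8 microglia and 4 of 10 astrocyte markers. The part of these markers in the Ntrk3 result was not tested. Between genotypes Ntrk3 was lower in every KO-labelled than in every WT-labelled library of the same environment, with a difference of -0.13 in the home cage (adjusted p = 0.527) and -0.27 after exploration (SE 0.078, adjusted p = 0.13), neither called.

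Ngfr, on chromosome 11 (95568818 to 95587698, gene ID 18053), was near 0 in CA1. It measured 0.05 and 0.08 FPKM in WT-labelled home cage, 0.03 and 0.05 in KO-labelled home cage, 0.15, 0.03 and 0.05 in WT-labelled exploration and 0.03, 0.06 and 0.06 in KO-labelled exploration libraries, an estimated 1.9 to 9.7 fragments each. It did not pass the filter of 1 FPKM in 2 libraries and was not tested. A change in Ngfr was not detectable at this depth.

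Sort1 was the most even of the 8. On chromosome 3 (108283974 to 108361519, gene ID 20661), it measured 135.95 and 141.99 FPKM in WT-labelled home cage, 132.32 and 130.38 in KO-labelled home cage, 125.17, 121.39 and 127.08 in WT-labelled exploration and 115.18, 134.7 and 135.23 in KO-labelled exploration libraries. WT-labelled exploration libraries were below both WT-labelled home cage libraries, while KO-labelled exploration libraries spread on both sides of the KO-labelled home cage pair. The share of all genes apart in that way in WT-labelled libraries was not counted. No comparison of Sort1 was called in the fit of all 4 groups to the values as deposited. Exploration changed it by -0.16 in WT-labelled (interval -0.33 to 0.02, limma adjusted p = 0.272) and -0.04 in KO-labelled libraries (interval -0.21 to 0.14, adjusted p = 0.76). Averaged over both genotypes the change was -0.10 (adjusted p = 0.211). Under quantile normalization that average was -0.23 and called (adjusted p = 0.0188).

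Nrn1 encodes neuritin, a small membrane-anchored protein that promotes neurite growth, on chromosome 13 (36725622 to 36734477, gene ID 68404). It measured 147.16 and 155.47 FPKM in WT-labelled home cage, 191.47 and 183.18 in KO-labelled home cage, 174.51, 170.54 and 179.69 in WT-labelled exploration and 235.66, 203.5 and 196.69 in KO-labelled exploration libraries. Every KO-labelled library was above every WT-labelled library of the same environment. Such a separation in the same direction in both environments was found for 6.79% of tested genes and for 2 of those here, Nrn1 and Ntrk3.

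The genotype difference in Nrn1 was 0.31 in the home cage (SE 0.093, limma adjusted p = 0.0991) and 0.27 after exploration (SE 0.076, adjusted p = 0.117), neither called, in comparisons that called 3.57% and 0.597% of all genes. The difference between those 2 values, which is the difference in response, was -0.03 (interval -0.30 to 0.23, adjusted p = 0.926). Averaged over both environments, an addition made after seeing these values in which 2.13% of genes were called, Nrn1 was higher by 0.29 (interval 0.16 to 0.42, adjusted p = 0.0376) in KO-labelled libraries. That call held in 7 of 18 alternatives, and with 1 library left out it held only without KO-labelled exploration library 1 or 3, with changes of 0.25 to 0.32 throughout. Exploration raised Nrn1 on average by 0.19 (SE 0.06, adjusted p = 0.031), and the value was 0.04 under quantile normalization (adjusted p = 0.599). This call was lost in 7 of 18 alternatives, among them those without WT-labelled exploration library 1 or 3, either WT-labelled home cage library, or home cage library 2 of the KO label.

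**Figure D3:**
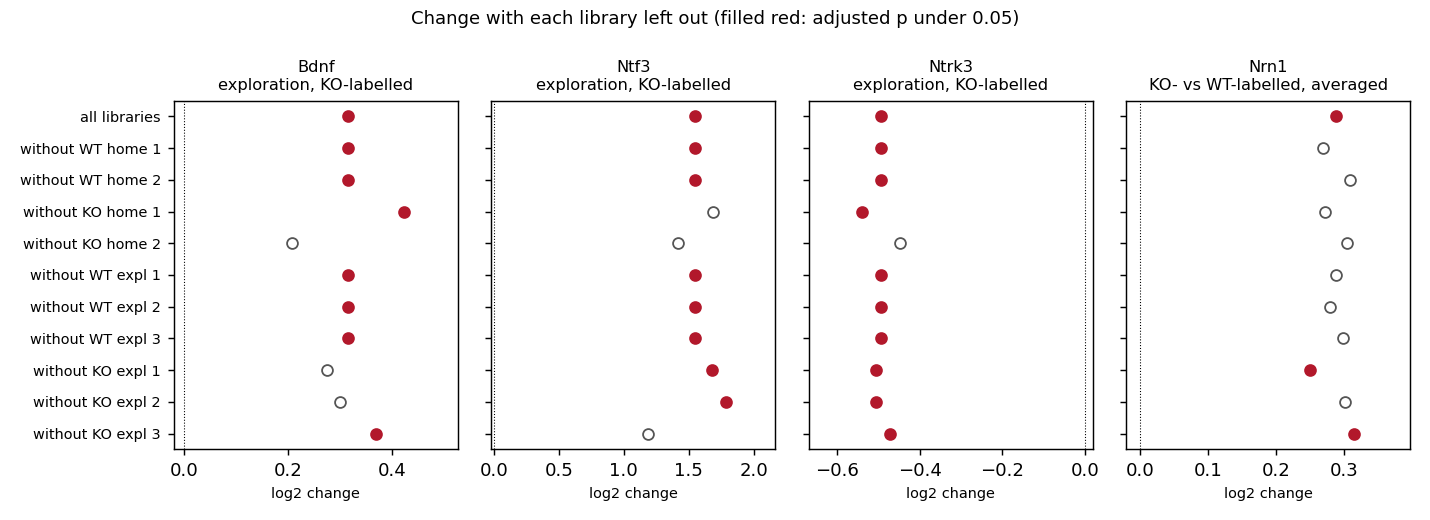
Log2 change of 4 genes with all libraries and with each library left out in turn; filled red points have an adjusted p under 0.05. The Ntrk3 fall in KO-labelled libraries stays between -0.54 and -0.45 and is lost only without KO-labelled home cage library 2. The averaged Nrn1 difference stays between 0.25 and 0.32. It is called with all libraries but in only 2 of the 10 points with a library left out.

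Vgf encodes a secreted precursor of neuropeptides that is carried in dense core vesicles. On chromosome 5 (137025301 to 137033351, gene ID 381677), it measured 99.73 and 94.7 FPKM in WT-labelled home cage, 103.55 and 108.51 in KO-labelled home cage, 114.32, 125.68 and 117.07 in WT-labelled exploration and 86.06, 89.04 and 132.61 in KO-labelled exploration libraries. KO-labelled exploration library 3 was the highest of all 10 and the other 2 of its group were the lowest. No comparison of Vgf was called with all libraries fitted together. Exploration changed it by 0.29 in WT-labelled (interval -0.03 to 0.61, adjusted p = 0.267) and -0.08 in KO-labelled libraries (adjusted p = 0.729), with a difference of -0.36 (interval -0.82 to 0.09, adjusted p = 0.423). Without KO-labelled exploration library 3 the genotype difference after exploration was -0.44 (adjusted p = 0.0378), the KO-labelled change was -0.27 (adjusted p = 0.0267) and the WT-labelled change of 0.29 had an adjusted p of 0.0311. The WT-labelled change was also called in a fit of the WT-labelled groups alone (adjusted p = 0.0194).

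**Figure D4:**
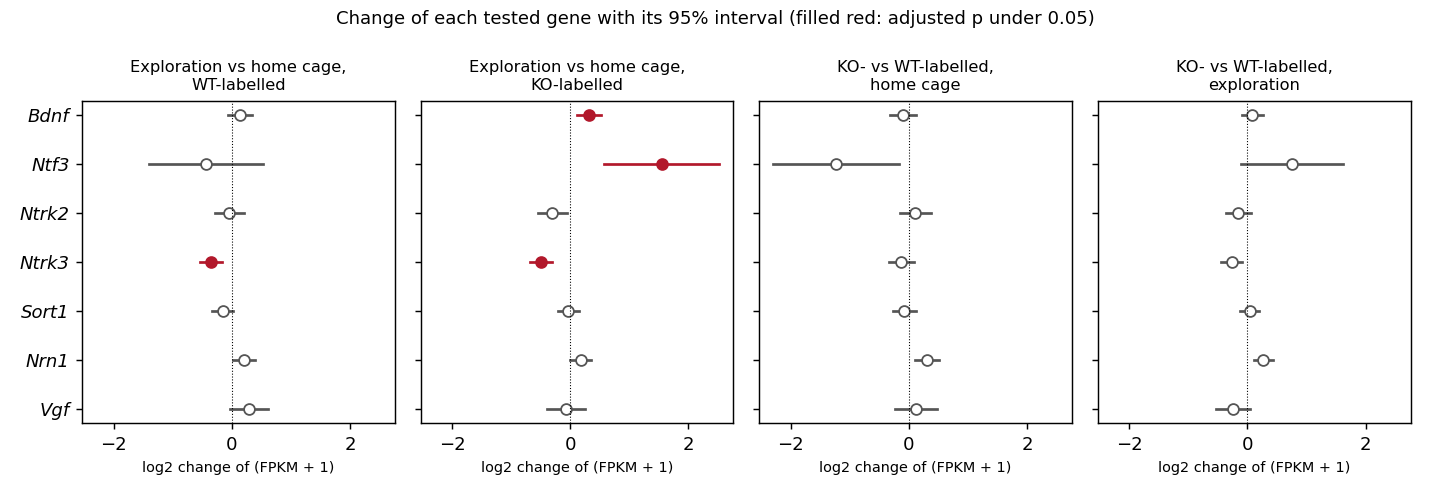
Change of the 7 tested genes on the log2(FPKM + 1) scale with 95% intervals, by comparison; filled red points passed an adjusted p of 0.05. Ntrk3 is called lower after exploration in both genotypes, Bdnf and Ntf3 higher in KO-labelled libraries, and no gene is called in either genotype comparison.

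In each environment the genotype label called 0 of 7 tested genes (limma), and 2 had an unadjusted p under 0.05, Ntf3 and Nrn1 in the home cage and Ntrk3 and Nrn1 after exploration. Over all genes 3.57% and 0.597% were called in those 2 comparisons, and 18.3% and 17.2% had an unadjusted p under 0.05. Exploration called 1 of 7 in WT-labelled libraries, beside 6.31% of all genes, and 3 of 7 in KO-labelled libraries, beside 28.6% of all genes. The test of the difference in response called 0 of 7, with 1 unadjusted p under 0.05, beside 0.875% of all genes called and 16.1% with an unadjusted p under 0.05. WT- and KO-labelled responses are thus not shown to differ for any of these genes.

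Genes with the most similar pattern to each, by Pearson r of log2(FPKM + 1) over the 10 libraries among the other tested genes with a mean of at least 5 FPKM (8235, or 8236 for Ntf3), are given as a description. They were Cbx3 (r = 0.976), Chmp5 (0.967) and Commd10 (0.952) for Bdnf, and Amigo2 (0.952), Scrt2 (0.947) and Extl2 (0.945) for Ntf3. For Ntrk2 they were Gabbr2 (0.971), Lonrf2 (0.964) and Pelp1 (0.963), and for Ntrk3 Arntl (0.978), Phf12 (0.971) and Abcc5 (0.969). For Sort1 they were Add2 (0.922), Nckap1 (0.92) and Zyg11b (0.892), for Nrn1 Dr1 (0.962), Wdr45b (0.96) and Cct5 (0.96), and for Vgf Eef1a2 (0.93), Midn (0.922) and Myo18a (0.901). Among the members, Bdnf ran opposite to Ntrk2 (r = -0.798) and Ntrk3 (r = -0.775), and Nrn1 opposite to Ntrk3 (r = -0.724), over the same 10 libraries.

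The rest of the pathway was read from 5 lists of 93 genes, of which 80 were tested. In the home cage KO-labelled libraries were higher for 4 and lower for 0, which is 5% of the 80 beside 3.57% of all genes (2.12% called higher), with a median change of 0.05 against -0.02 over all tested genes. The 4 were Mapk3, the ERK1 kinase, at 0.84 (adjusted p = 0.0342), Plat, the protease tPA that can activate plasmin to cleave pro-BDNF, at 0.70 (adjusted p = 0.0453), and the granin-family genes Pcsk1n at 0.46 (adjusted p = 0.038) and Scg3 at 0.39 (adjusted p = 0.0462). Mapk3 was 28.55 and 29.07 FPKM in WT-labelled and 50.24 and 54.41 FPKM in KO-labelled home cage libraries. The number called ranged from 0 to 7 with 1 library left out, and all 4 calls were lost without WT-labelled home cage library 1, KO-labelled home cage library 2 or KO-labelled exploration library 2. After exploration the genotype label called 0 of 80 (limma), with 10 at an unadjusted p under 0.05, beside 0.597% of all genes called and 17.2% of all genes at that unadjusted p.

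Exploration in WT-labelled libraries lowered 5 and raised 0 of the 80, or 6.25%, beside 6.31% of all genes called and 4.29% called lower. All 5 were in the list of Trk adaptors and signalling genes, which holds 44 of the 80. They were Mapk7, the ERK5 kinase (-0.65, adjusted p = 0.0118), the adaptor Frs2 (-0.50, adjusted p = 0.0086), the CREB coactivator Crtc2 (-0.50, adjusted p = 0.0439), the Ras exchange factor Sos1 (-0.39, adjusted p = 0.034) and Braf (-0.32). Frs2 was 10 and 10.53 FPKM in WT-labelled home cage and 7.01, 7.03 and 6.93 FPKM in exploration libraries. The count of 5 fell to 2 without any 1 of WT-labelled home cage library 1 or the WT-labelled exploration libraries, and to 0 without WT-labelled home cage library 2.

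In KO-labelled libraries exploration raised 3 and lowered 28 of the 80, or 38.8%, beside 28.6% of all genes (12% higher and 16.6% lower). The median change of the 80 was -0.14 against -0.04 over all tested genes. CA1 pyramidal markers moved in the same comparison: 6 of 9 were called lower and 1, Wfs1, higher, with a median of -0.41, and their part in the pathway result was not tested. Of all genes called there, 42% were higher as deposited and 54.4% under median-of-ratios size factors. Among the lowered genes were Mapk3 (-1.10, adjusted p = 0.00199), the proprotein convertase Furin (-0.71, adjusted p = 0.00114), Plat (-0.59, adjusted p = 0.0164), the adaptors Sh2b2 (-0.81) and Gab2 (-0.72), the kinase Rps6ka5 (-0.68), and the sortilin relatives Sorcs1 (-0.74) and Sorcs2 (-0.61). Of the 14 tested p75 partners 5 fell and 0 rose, among them the Nogo receptor family members Rtn4rl2 (-0.66) and Rtn4r (-0.30), their partner Lingo1 (-0.43) and the zinc finger gene Zfp369 (-0.43). Raised were Hras (0.45) and, in the granin list, Chgb (0.48) and Scg5 (0.40), while Cadps2 (-0.47), Scg3 (-0.38), Scg2 (-0.35) and Pcsk1n (-0.30) fell. The calls of Sorcs2, Scg2, Zfp369 and Pcsk1n were lost in 11 or 12 alternatives each, while those of Mapk3, Furin, Rtn4rl2 and Lingo1 held in 19 of 19. The count of 31 fell to 6 without KO-labelled home cage library 2, which also held 17.51 FPKM of Plat against 7.33 to 13.0 in the other home cage libraries. The test of the difference in response called 1 of 80 (1.25%), Rtn4rl2 (-0.56, adjusted p = 0.0496), and the call was lost in 13 of 18 alternatives.

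**Figure D5:**
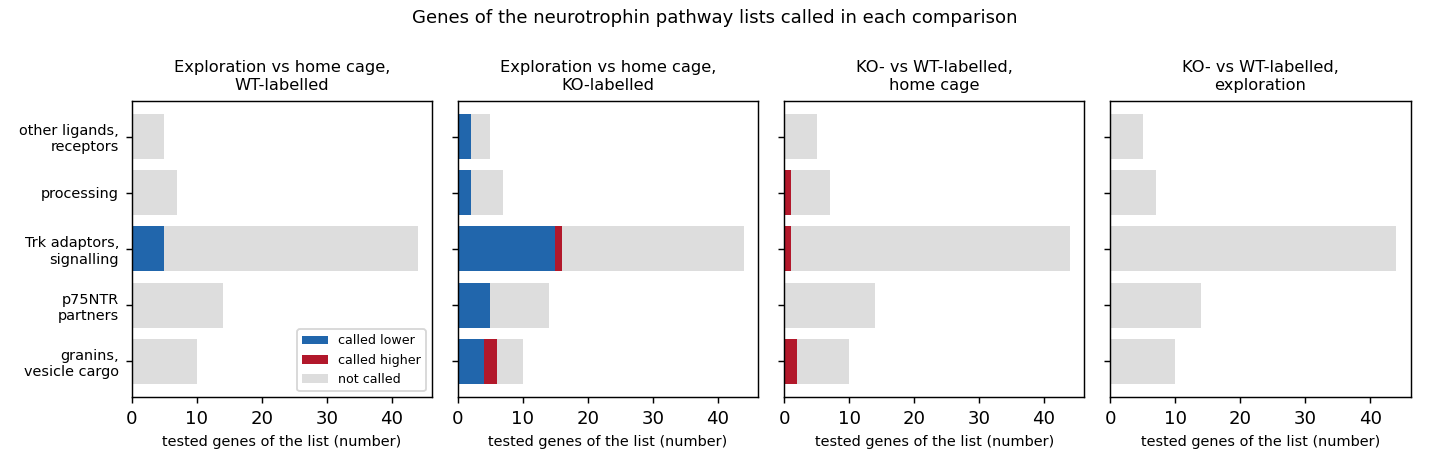
Number of tested genes called lower (blue), called higher (red) and not called (grey) in each of the 5 neurotrophin pathway lists, by comparison. The KO-labelled exploration comparison holds 31 calls, 28 of them lower, and the genotype comparison after exploration holds none.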

How the data were processed

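RNA from laser-dissected CA1 was sequenced on BGISEQ-500 as paired reads of 100 bp, per the labels' protocols. The submitters' processing notes name HISAT, StringTie, GATK, Bowtie2 and RSEM and the builds GRCm38 and mm10, without versions or roles. The authors deposited FPKM values in 1 table of 2 parts, which were joined on NCBI gene ID (17986 shared genes; 10 libraries in 4 groups; 6 labelled samples were not analysed here). Log2(FPKM + 1) values of 11892 genes that reached 1 FPKM in 2 or more libraries were fitted over all 4 groups with limma 3.58.1 (R 4.3.3; variance trend, Benjamini-Hochberg adjusted p under 0.05 = called); a fold change on this scale understates low genes. The fit was tested on simulated data. The named genes are the 8 members, Neil3, up to 4 largest called rises and falls per pathway list and the 3 most similar genes per member. Braf is named because it completes a count of 5, and Amigo2, Cpne4 and Cacng5 because they stood beside Ntf3; these were picked after their values were seen. Members and lists were chosen with earlier results of these data known. Fragment numbers are estimates from the spacing of low FPKM values and cover counting error only.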

Additional observations from a re-analysis of the deposited data

How the results depend on the processing

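No paired analysis was possible because the labels give the compared groups no shared replicate numbers. Leaving out 1 library left the averaged Ntrk3 fall called each time. Counts of the 7 tested genes called with 1 library left out ranged from 0 to 1 in the home cage genotype comparison, 0 to 1 in the genotype comparison after exploration, 0 to 2 for exploration in WT-labelled libraries, 0 to 4 in KO-labelled libraries, 0 to 1 for the difference in response, 0 to 1 for the averaged genotype comparison and 1 to 4 for averaged exploration. The WT-labelled exploration count of 1 became 0 with no filter on low values, with size factors, with no variance trend, and without both WT-labelled home cage library 1 and KO-labelled exploration library 3, and 3 in a fit of those groups alone. The KO-labelled count of 3 became 5 without those 2 libraries. The averaged genotype count of 1 became 0 with no filter, no trend or those 2 libraries left out.

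Signs of uncalled changes turned as follows. In the home cage genotype comparison Bdnf ranged from -0.207 to 0.007 and Ntrk2 from -0.04 to 0.262 with 1 library left out. Sort1 after exploration was -0.005 between genotypes under quantile normalization. In WT-labelled exploration Ntf3 ranged from -1.348 to 0.473 (0.473 also without both high libraries) and Ntrk2 from -0.107 to 0.023. In KO-labelled exploration Sort1 was 0.026 with size factors and ranged from -0.076 to 0.039, and Vgf from -0.273 to 0.036. The difference in response of Nrn1 ranged from -0.113 to 0.017 (0.056 without both). In the averaged genotype comparison Bdnf ranged from -0.063 to 0.045 (0.012 without both), Ntf3 from -0.691 to 0.22 (0.037 without both), Ntrk2 from -0.096 to 0.055 and Sort1 from -0.04 to 0.017 (-0.056 without both).

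Genes called among all tested changed by over 1.5 times in places: home cage genotype 425 became 27 with no filter and 13 to 588 with 1 library left out; genotype after exploration 71 became 10 with no filter, 37 with no trend, 37 with those groups alone and 17 to 104; WT-labelled exploration 750 became 440 with no filter, 492 with a 5 FPKM filter, 1710 with those groups alone and 84 to 1004; KO-labelled exploration 3400 became 1700 with those groups alone and 505 to 3568. The difference in response, 104, became 0 with a pseudocount of 0.1, no filter or no trend, 68 with a 5 FPKM filter and 0 to 436. The averaged genotype count of 253 became 47 with no filter, 427 under quantile normalization (50.4% higher, against 36.4% as deposited) and 28 to 319; averaged exploration, 3790, was 51.8% higher with size factors against 39.7%, and 1916 to 4248. The cause was not tested. Pathway counts, rerun as an addition made after seeing the data, went from 4 in the home cage to 0 with no filter, 2 with size factors and 1 with no trend or those groups alone; from 5 in WT-labelled exploration to 3 with no filter, 8 with no trend and 12 with those groups alone; and from 31 in KO-labelled exploration to 17 with no filter and 14 with those groups alone. The count of 1 for the difference in response became 0 with a pseudocount of 0.1, no filter or no trend and 2 under quantile normalization.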

Other observations

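The ratio of Bdnf to Ntrk2 in FPKM, a description chosen after seeing the values, was 0.463 and 0.43 in WT-labelled home cage, 0.461 and 0.318 in KO-labelled home cage, 0.521, 0.482 and 0.518 in WT-labelled exploration and 0.716, 0.599 and 0.5 in KO-labelled exploration libraries. All 6 exploration libraries were above all 4 home cage libraries. Both parts of the ratio were seen before it was formed, so it adds nothing to their own tests.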
